A study of Homo sapiens with 4 samples.

Results

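The promoters of 20 p53 target genes and 16 DNA repair genes were examined by ATAC-seq, which reads open chromatin from the places where a transposase can insert adaptors. A peak belonged to a gene when it lay within 1 kb of any of the gene's annotated transcription starts. This gave 74 of the 139872 consensus peaks, 35 at p53 targets and 39 at repair genes, and 68 of them had enough counts to enter the test (33 and 35). The 6 others were the only peak of PHLDA3 and 1 peak each of TIGAR, ATM, FANCA, PARP1 and ERCC1. The sample was SEM, a B cell precursor leukemia line with an MLL rearrangement, and all cells carried dCas9-KRAB, in which the KRAB repressor domain is joined to a Cas9 that cannot cut. They received either the guide RNA sgFLT3-DE-1, directed at a distal FLT3 enhancer that HOXA9 binds, or sgNT, a guide with no target, and were selected with puromycin. There were 2 libraries per guide, with 3670758 and 4831164 counts with sgFLT3-DE-1, against 3321429 and 2683477 counts with sgNT. The comparison is therefore that of 1 guide with 1 control guide in 1 cell line, and sgFLT3-DE-1 was not aimed at any of these promoters. The study's supplementary notes call the replicates biological, but the labels do not name separate cultures, so the spread behind each p-value may be technical. Of 12 B lineage marker genes 10 had a peak near a start (not CD79A or BLNK), against 3 of 6 T and NK cell markers, 4 of 6 myeloid markers and 2 of 6 erythroid markers. The summed level of the erythroid markers, carried by the globin gene HBB, was 246 to 583 CPM (counts scaled to a common library total) with sgFLT3-DE-1 and 50.4 to 66.8 with sgNT, and its part in the results was not tested.

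p53 is a transcription factor that is held at low levels by the ubiquitin ligase MDM2 and accumulates after DNA damage. It binds a pair of short half-sites in or near its target genes and raises their transcription, which can arrest the cell cycle, start cell death, adjust metabolism or aid repair. The kinases ATM and ATR sense broken or stalled DNA and pass the signal to CHEK1, CHEK2 and p53, while separate sets of proteins mend double strand breaks, crosslinks, single strand breaks, mismatches and bulky lesions. Many repair genes are transcribed in all dividing cells from GC-rich promoters that are open without damage.

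The p53 response element was searched in 300 bases around the centre of each peak as 2 half-sites of 10 bases, 0 to 13 bases apart, with the central C and G of each half-site exact and at most 3 mismatches in all. The element reads the same on both strands. A match lay in the windows of 7 of 33 p53 target peaks and 3 of 35 repair gene peaks. This compares with 11.6% of the windows of the 18160 tested promoter peaks of protein-coding genes. The matches at FAS and RRM2B and 1 at DDB2 lay outside the peak itself. The p53 target matches with no more than 2 mismatches are shown because p53 acts through such pairs, with half-sites in capitals and any spacer in lower case. All sequences are given 5′ to 3′ on the plus strand of GRCh37.
DDB2 half-sites, chr11:47236530-47236550: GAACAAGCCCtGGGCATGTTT
DDB2 half-sites, chr11:47255821-47255842: AGGCGTGCCTcaGGGCTTGCTT
FAS half-sites, chr10:90751066-90751085: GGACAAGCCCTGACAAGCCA
AEN half-sites, chr15:89164537-89164556: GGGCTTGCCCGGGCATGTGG
MDM2, chr12:69202653-69202772: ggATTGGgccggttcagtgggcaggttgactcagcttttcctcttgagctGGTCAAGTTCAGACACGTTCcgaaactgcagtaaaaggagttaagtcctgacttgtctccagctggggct
The DDB2 element at 47236530 had 0 mismatches and lay in exon 1, inside the peak over the start of the gene, which encodes a sensor of UV lesions. The second DDB2 element had 1 mismatch and lay outside its peak. The FAS element had 2 mismatches and ended just before the first base of a peak. The AEN and MDM2 elements, with 2 mismatches each, lay inside peaks. The MDM2 stretch of 120 bases is from intron 1 and runs past the end of its peak, which lies 34 bp from an annotated internal start. Its other capitals mark ATTGG. The search kept only the best match of each window, so any further half-sites are not marked.

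The 4 peaks with an unadjusted p under 0.05 are shown next, as the single peaks with the smallest p between guides, although none passed the adjusted test. Each stretch is the longest run in the 300-base window that touches no annotated exon. Capitals mark p53 half-sites and any match, whole within the stretch, to ATTGG (the box of NF-Y), CCGGAAG (ETS factors), GCGCATG (NRF1), GGGCGG (SP factors), TGACGTCA (CRE), or TTTCCCGC and TTTGGCGC (E2F), on either strand.
GADD45B, chr19:2475895-2476119: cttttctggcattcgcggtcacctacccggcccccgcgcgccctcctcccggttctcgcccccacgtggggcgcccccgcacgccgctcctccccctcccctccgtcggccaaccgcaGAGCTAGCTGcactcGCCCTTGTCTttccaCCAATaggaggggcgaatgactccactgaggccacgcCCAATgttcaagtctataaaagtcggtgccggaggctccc
XPC, chr3:14220122-14220316: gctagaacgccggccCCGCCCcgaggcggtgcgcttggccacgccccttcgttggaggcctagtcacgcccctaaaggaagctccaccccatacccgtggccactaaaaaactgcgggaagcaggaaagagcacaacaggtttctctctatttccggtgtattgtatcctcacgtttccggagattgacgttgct
PALB2, chr16:23652643-23652786: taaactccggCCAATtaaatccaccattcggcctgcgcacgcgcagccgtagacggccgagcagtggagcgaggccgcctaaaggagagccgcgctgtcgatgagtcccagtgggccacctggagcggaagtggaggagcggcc
ERCC1, chr19:45926864-45927038: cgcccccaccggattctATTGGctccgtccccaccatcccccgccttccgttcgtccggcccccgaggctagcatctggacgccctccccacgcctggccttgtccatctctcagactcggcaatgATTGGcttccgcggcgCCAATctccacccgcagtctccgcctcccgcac
The GADD45B stretch holds a p53-like pair with 3 mismatches and a 5-base spacer, followed by 2 ATTGG matches, and GADD45B is transcribed from the plus strand. XPC, PALB2 and ERCC1 are transcribed from the minus strand. The ERCC1 stretch has 3 ATTGG matches, PALB2 has 1, and XPC has 1 GGGCGG match. Over all tested peaks, ATTGG lay in 14 of 33 p53 target windows and 16 of 35 repair gene windows, against 29.5% of promoter windows. GGGCGG lay in 24 and 22 windows, against 64.3%. CCGGAAG lay in 2 p53 target windows and 7 repair gene windows, against 13.7%. GCGCATG lay in 1 and 3 (5.6% of promoters), the E2F letters in 3 and 2 (2.82%), and TGACGTCA in 0 and 0 (2.11%). The median log2 fold change between guides was -0.12 for the 10 windows with a p53 match and -0.18 for the other members, and it was -0.23 for the 30 windows with ATTGG and -0.14 for those without. These are matches of letters only, and binding was not measured.

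Accessibility levels were first compared between genes, per kilobase of peak with CPM scaled by TMM factors (normalised CPM). For each gene the main peak was the tested peak of highest normalised CPM. The median over both guides was 53.3 CPM per kb for the 18 p53 targets with a tested peak and 45.7 for the 16 repair genes, against 48.3 for the main peaks of 12071 protein-coding genes chosen in the same way. Above that value lay 12 of 18 p53 targets and 8 of 16 repair genes. Over all tested peaks, minor ones included, the medians were 49.95 for p53 targets and 38.24 for repair genes, against 42.09 for promoter peaks. GADD45A, a stress gene that acts in growth arrest, had the most open p53 target promoter, with 282 CPM per kb with sgFLT3-DE-1, against 266 with sgNT. FAS, the gene of a death receptor, had the least open one, with 20.1 with sgFLT3-DE-1, against 20.6 with sgNT. Among repair genes, ATR was the most open (135 with sgFLT3-DE-1, against 144 with sgNT) and FANCD2, a Fanconi anemia protein that acts at crosslinks, the least (27.5 with sgFLT3-DE-1, against 32.5 with sgNT). Next to FAS in the p53 target order over both guides stood ZMAT3 (42.2 with sgFLT3-DE-1, against 41.8 with sgNT). GADD45B (29.7 with sgFLT3-DE-1, against 57.6 with sgNT) and SESN2 (41.2, against 49.7) lay below ZMAT3 with sgFLT3-DE-1 only. Next to FANCD2 stood PALB2 (24.8 with sgFLT3-DE-1, against 41.3 with sgNT). The order near the least open gene thus differed between guides in both classes.

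**Figure D1:**
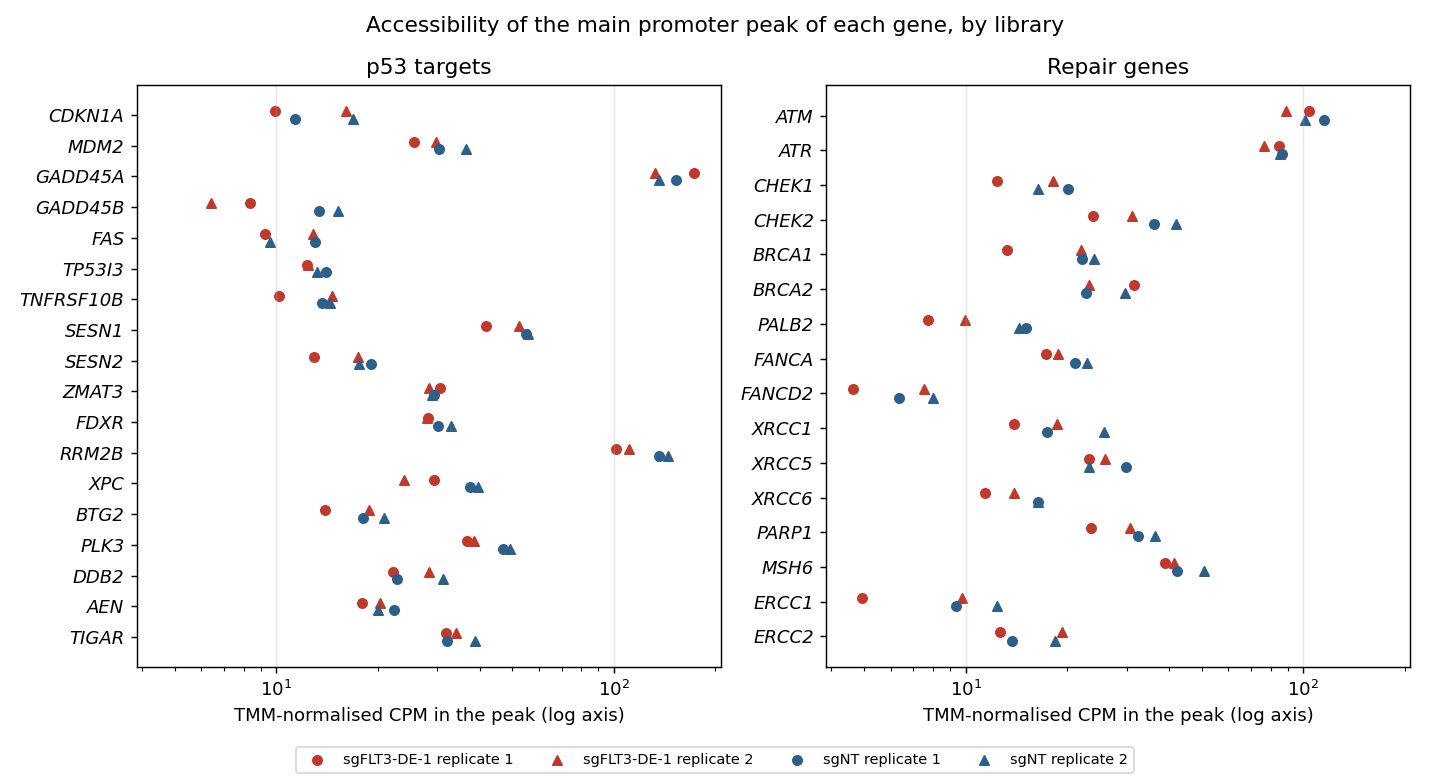
TMM-normalised CPM in the main promoter peak (horizontal log axis) of each p53 target and repair gene (vertical axis) in the 4 libraries, with sgFLT3-DE-1 in red above sgNT in blue, circles for replicate 1 and triangles for replicate 2. GADD45A, RRM2B, ATM and ATR are the most open, and both sgFLT3-DE-1 libraries of GADD45B (8.34 and 6.41) lie below both sgNT libraries (13.4 and 15.2).

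The question for the guides was whether accessibility at these promoters differed between cells with sgFLT3-DE-1 and cells with sgNT. None of the 68 peaks passed FDR 0.05 by edgeR's quasi-likelihood test adjusted over all 82558 tested peaks (0.00242% of all tested peaks passed, both at HBB, and 0.011% of promoter peaks). DESeq2 and limma-voom also gave 0 of 68. At an unadjusted p under 0.05 there were 4 of the 68, all lower with sgFLT3-DE-1, by edgeR, against 1.9% of all tested peaks in either direction, 1.07% lower, and 2.53% of promoter peaks lower. DESeq2 gave 1 and limma-voom 4 at that level, and edgeR gave 11 with the replicate number as a block. The shares of all tested peaks under these settings are not given here. The edgeR count depended on single libraries, as it changed with each library left out. Of the 68 log2 fold changes 64 were smaller than 2 standard errors (SE), with SE between 0.25 and 0.652. The SE of a single peak thus limited what could be told apart at this depth.

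Most estimates nevertheless lay below 0. They did so in 26 of 33 p53 target peaks (78.8%) and 28 of 35 repair gene peaks (80.0%), against 48.1% of all tested peaks and 62.7% of promoter peaks. The median log2 fold change was -0.15 for p53 targets, -0.21 for repair genes, -0.09 for promoter peaks and 0.01 for all tested peaks. The middle 50% of the values ran from -0.25 to -0.03 for p53 targets and from -0.34 to -0.06 for repair genes. Both sgFLT3-DE-1 libraries lay below both sgNT libraries in 12 p53 target peaks and 12 repair gene peaks, against 13.8% of all tested peaks and 23.3% of promoter peaks. They lay above in 2 and 0 peaks, against 13.7% and 7.7%. The 2 classes were thus shifted in the same direction as promoters in general, and their difference from each other was not tested. The direction of both medians held when TMM factors came from promoter peaks only (-0.04 and -0.10), a scaling that put the median of promoters at 0.02 and of all tested peaks at 0.12. Under that scaling 44 of the 68 estimates (64.7%) were lower, against 47.5% of promoter peaks.

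**Figure D2:**
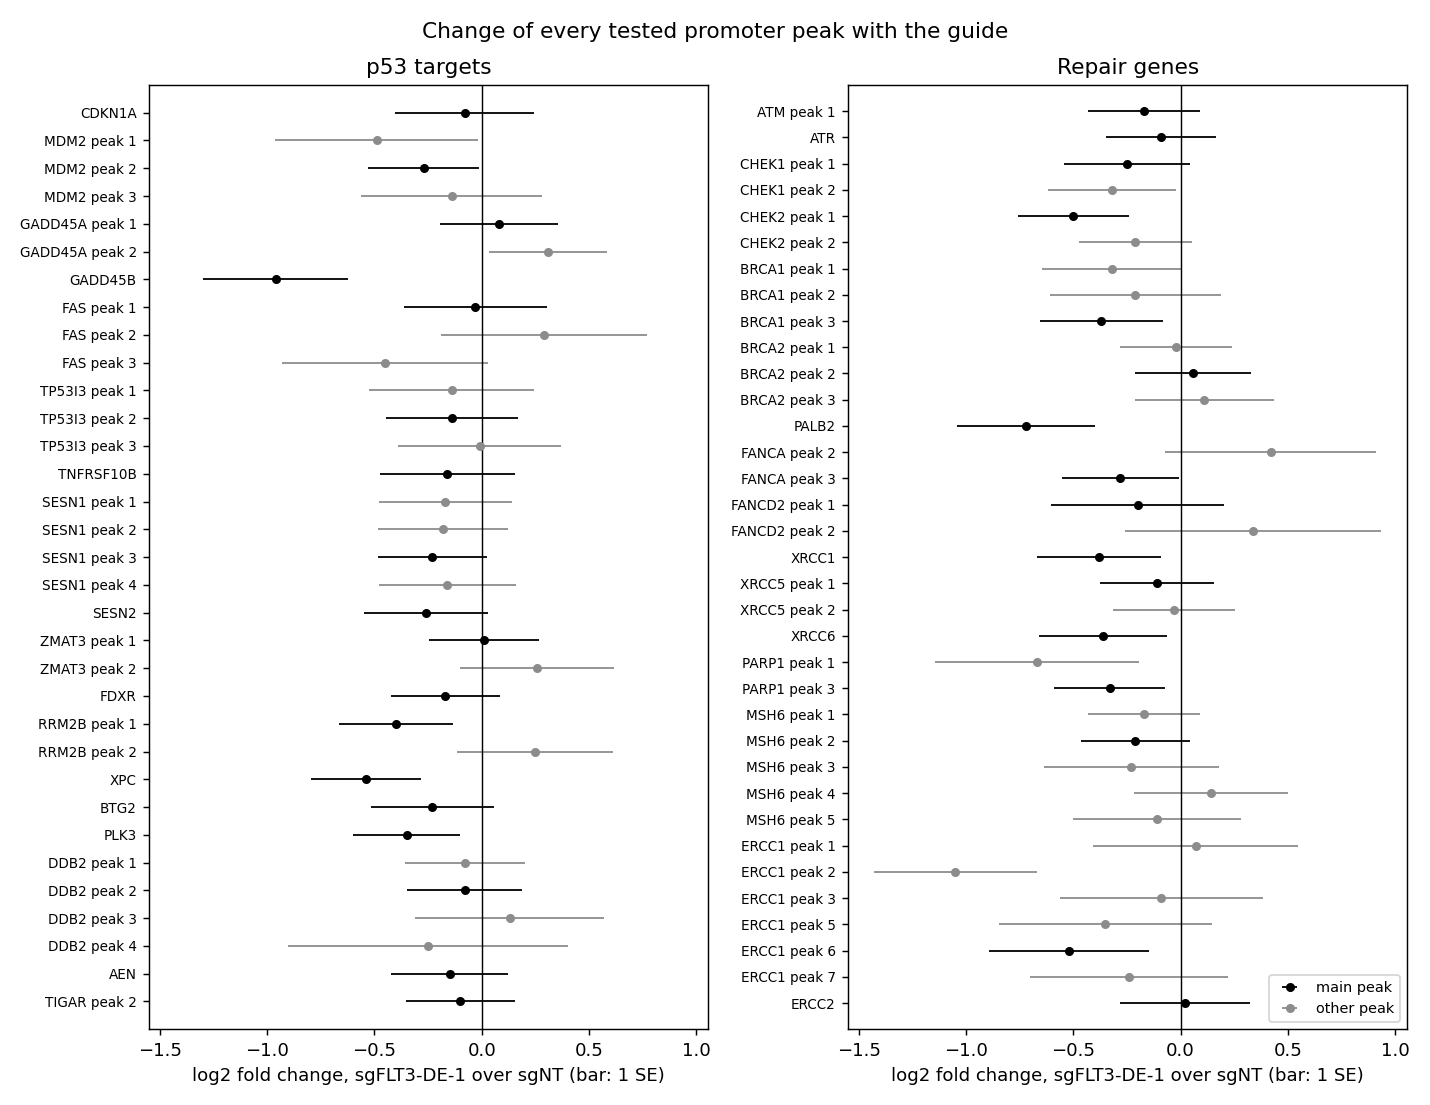
Log2 fold change of sgFLT3-DE-1 over sgNT (horizontal axis) with 1 SE for each of the 33 tested p53 target peaks and 35 tested repair gene peaks (vertical axis), black for the main peak of a gene and grey for others, with peaks of a gene numbered by position. Most points lie left of 0 with bars that reach it, and the lowest are GADD45B (-0.96) and ERCC1 peak 2 (-1.05).

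This shift was largest in 1 library, sgFLT3-DE-1 replicate 1, but was not confined to it. Relative to the mean of the 4 libraries, the median p53 target peak stood at -0.19 and 0.02 (log2) in sgFLT3-DE-1 replicates 1 and 2, and at 0.03 and 0.15 in sgNT replicates 1 and 2. The median repair gene peak stood at -0.32 and 0.02 with sgFLT3-DE-1, against 0.13 and 0.18 with sgNT. Promoter peaks stood at -0.11 and 0.00 with sgFLT3-DE-1, against 0.06 and 0.07 with sgNT, so the low library was the same, with a smaller shift. Without sgFLT3-DE-1 replicate 1 the medians were -0.06 for p53 targets and -0.08 for repair genes, beside -0.08 for promoters, and 44 of 68 estimates were lower. Without sgFLT3-DE-1 replicate 2 they were -0.31, -0.48 and -0.19. Between the libraries numbered 1, 26 p53 target and 33 repair gene peaks were lower with sgFLT3-DE-1 (median log2 ratios -0.19 and -0.35). Between those numbered 2, 26 and 22 were lower (-0.14 and -0.11). Of the 18160 promoter peaks, 11641 were lower in the replicate 1 pair (median -0.13) and 10685 in the replicate 2 pair (-0.07). The repair gene median thus lay well below that of promoters in the replicate 1 pair, but near it in the replicate 2 pair.

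**Figure D3:**
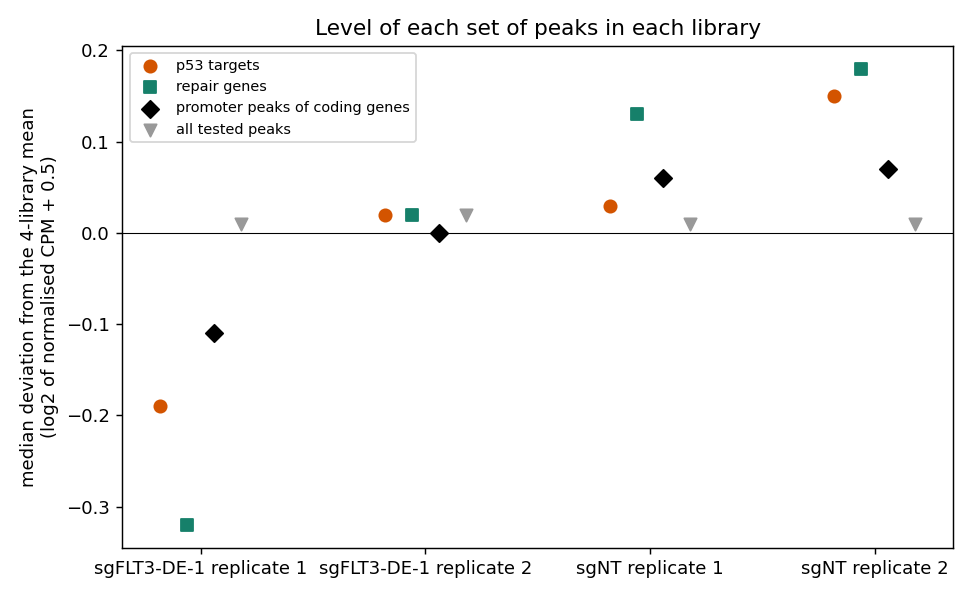
Median deviation from the mean of the 4 libraries (vertical axis, log2 of normalised CPM + 0.5) of the tested p53 target, repair gene, promoter and all peaks in each library (horizontal axis). Repair gene peaks stand at -0.32 in sgFLT3-DE-1 replicate 1 and at 0.02 in sgFLT3-DE-1 replicate 2, while all tested peaks stay between 0.01 and 0.02.

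Among the arrest genes, CDKN1A encodes p21, the inhibitor of cyclin-dependent kinases that is the best known p53 target. Its 1 peak, chromosome 6 from 36646325 to 36646593 with 166 bp upstream and the rest in exon 1 and intron 1, had 9.88 and 16.1 normalised CPM with sgFLT3-DE-1, against 11.4 and 16.8 with sgNT. The groups overlapped almost fully, and the log2 fold change was -0.08 (SE 0.325, edgeR adjusted p = 1.0). After a correction for GC content it was 0.07 and without sgFLT3-DE-1 replicate 1 it was 0.20, so CDKN1A had no stable direction. GADD45B, a stress-induced relative of GADD45A, was the lowest p53 target. Its peak, chromosome 19 from 2475921 to 2476168 with 204 bp upstream and 44 bp of exon 1, had 8.34 and 6.41 normalised CPM with sgFLT3-DE-1, against 13.4 and 15.2 with sgNT, from 27 and 29 counts and 40 and 38 counts. The groups did not overlap, and accessibility with sgFLT3-DE-1 was 51.6% of that with sgNT. The log2 fold change was -0.96 (SE 0.338, unadjusted p = 0.00798, edgeR adjusted p = 1.0). It was between -1.15 and -0.78 when any 1 library was left out and -0.86 after the GC correction.

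The estimates of GADD45A lay on the other side of 0. Its main peak, chromosome 1 from 68150623 to 68151164 over exon 1 and the upstream region, had 173 and 132 normalised CPM with sgFLT3-DE-1, against 152 and 136 with sgNT, and the sgNT libraries lay between the sgFLT3-DE-1 libraries. The log2 fold change was 0.08 (SE 0.275), and -0.13 without sgFLT3-DE-1 replicate 1. A second GADD45A peak, from 68151975 to 68152286 across exon 3 and intron sequence, had 20.4 and 22.3 with sgFLT3-DE-1, against 17.0 and 17.6 with sgNT. It was 1 of 2 p53 target peaks with both sgFLT3-DE-1 libraries above both sgNT libraries, with a log2 fold change of 0.31 (SE 0.276, edgeR adjusted p = 1.0). PLK3, a stress-responsive kinase gene on chromosome 1 (peak 45265445 to 45266206), had 36.8 and 38.5 with sgFLT3-DE-1, against 46.8 and 49.2 with sgNT. Replicates of PLK3 were close and the groups apart, with a log2 fold change of -0.35 (SE 0.25, edgeR adjusted p = 1.0). BTG2, an antiproliferative gene, had -0.23 (SE 0.287). Over the 5 arrest genes 4 of 6 peaks were lower, with a median of -0.16. This count, and those of the small groups below, stand beside 62.7% of promoter peaks lower, with a median of -0.09.

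MDM2, the negative regulator of p53, has a constitutive start and an internal p53-dependent start in its first intron. The main peak, chromosome 12 from 69201556 to 69202066, covered 401 bp upstream and 110 bp of exon 1. It had 25.6 and 29.6 normalised CPM with sgFLT3-DE-1, against 30.4 and 36.4 with sgNT, groups that did not overlap but lay close, and the log2 fold change was -0.27 (SE 0.258, edgeR adjusted p = 1.0). The intron 1 peak from 69202577 to 69202748, which holds the element printed above, was far smaller. It had 4.94 and 5.97 with sgFLT3-DE-1, against 5.01 and 7.21 with sgNT, ranges that overlapped, and a log2 fold change of -0.14 (SE 0.422). Per kilobase it reached 31.7 CPM with sgFLT3-DE-1, against 35.5 with sgNT. The main MDM2 peak reached 54.1 with sgFLT3-DE-1, against 65.4 with sgNT. The small upstream peak had -0.49 (SE 0.474).

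In the cell death group, the main FAS peak, chromosome 10 from 90750211 to 90750760, spans exon 1 and also lies within 1 kb of a start of ACTA2. It had 9.27 and 12.8 normalised CPM with sgFLT3-DE-1, against 13.03 and 9.61 with sgNT, fully overlapping, and a log2 fold change of -0.03 (SE 0.333). The FAS peak that begins right after the printed element had 0.29 (SE 0.481), and the last FAS peak -0.45 (SE 0.479). The main peak of TP53I3, a redox enzyme gene that p53 induces in apoptosis, lay in exon 1 on chromosome 2 from 24307240 to 24307450. It had 12.4 and 12.4 with sgFLT3-DE-1, against 14.0 and 13.2 with sgNT, a small gap between groups with a log2 fold change of -0.14 (SE 0.307). The TP53I3 peak over the canonical start, from 24307543 to 24307763 and named after its values were seen, had 9.88 and 5.97 with sgFLT3-DE-1, against 7.69 and 8.01 with sgNT, and -0.01 (SE 0.38). After the GC correction the 2 TP53I3 values were 0.02 and 0.12, and that of FAS was 0.04. The death receptor gene TNFRSF10B had -0.16 (SE 0.313), the exonuclease gene AEN -0.15 (SE 0.273), and ZMAT3, which encodes an RNA-binding protein, 0.01 (SE 0.256) at its main peak. Over the 5 genes 7 of 10 peaks were lower, with a median of -0.08, against 62.7% and -0.09 for promoter peaks. PHLDA3, an inhibitor of AKT, had 1 peak with 4 and 9 counts with sgFLT3-DE-1, against 0 and 1 with sgNT, too few to be tested. TP53INP1, which acts in cell death and autophagy, had no listed peak within 1 kb of a start and was not analysed here.

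Of the p53 targets that serve repair, XPC recognises bulky lesions in nucleotide excision repair. Its peak, chromosome 3 from 14220004 to 14220391, holds 290 bp upstream and exon 1 sequence, and a start of LSM3, an RNA processing gene, also lies within 1 kb. It had 29.3 and 23.9 normalised CPM with sgFLT3-DE-1, against 37.4 and 39.6 with sgNT. The groups were apart and the sgNT libraries close, with a log2 fold change of -0.54 (SE 0.256, unadjusted p = 0.0441, edgeR adjusted p = 1.0) and a range of -0.70 to -0.40 when 1 library was left out. RRM2B, a ribonucleotide reductase subunit that supplies nucleotides, had after GADD45A the most open p53 target promoter. Its main peak, chromosome 8 from 103250829 to 103251817, had 102 and 111 with sgFLT3-DE-1, against 136 and 145 with sgNT, also apart, and a log2 fold change of -0.40 (SE 0.265, edgeR adjusted p = 1.0). The smaller RRM2B peak had 0.25 (SE 0.363). The main DDB2 peak, with the 0-mismatch element, had 22.2 and 28.3 with sgFLT3-DE-1, against 22.7 and 31.2 with sgNT, and a log2 fold change of -0.08 (SE 0.27). Its ranges overlapped almost fully. The 7 tested peaks of the metabolic targets had estimates between -0.26 and -0.10, with a median of -0.17, but after the GC correction only 5 were below 0 (TIGAR had 0.04 and a SESN1 peak 0.00), and 5 without sgNT replicate 2. These were the peaks of SESN1 and SESN2, which restrain mTORC1, of TIGAR, which lowers glycolytic flux, and of FDXR, a mitochondrial electron donor. The lowest of them was SESN2 (SE 0.29), and none exceeded 2 SE.

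Among repair genes the kinases came first. The ATM peak, chromosome 11 from 108093257 to 108094099, is shared (also within 1 kb of a start) with NPAT, a histone gene activator. It had 104 and 88.7 normalised CPM with sgFLT3-DE-1, against 115 and 101 with sgNT, overlapping, and a log2 fold change of -0.17 (SE 0.263, edgeR adjusted p = 1.0). ATR, chromosome 3 from 142297355 to 142297949, had 84.9 and 76.3 with sgFLT3-DE-1, against 86.2 and 85.3 with sgNT. The ATR groups were just apart, and the log2 fold change of -0.09 (SE 0.257) became 0.03 after the GC correction. CHEK1, chromosome 11 from 125495451 to 125495898, lay in annotated exon 1 sequence 393 bp from the canonical start. It had 12.4 and 18.1 with sgFLT3-DE-1, against 20.1 and 16.4 with sgNT, overlapping, and -0.25 (SE 0.295). The CHEK2 main peak, chromosome 22 from 29137643 to 29138082, is shared with HSCB, an iron-sulfur cluster chaperone gene. It had 23.8 and 31.2 with sgFLT3-DE-1, against 36.1 and 42.0 with sgNT, apart, and -0.50 (SE 0.258, unadjusted p = 0.0654, edgeR adjusted p = 1.0). The 6 tested peaks of the 4 kinases had estimates below 0, with a median of -0.23, and 5 of them did after the GC correction and with TMM factors from promoter peaks.

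In homologous recombination, PALB2, which bridges BRCA1 and BRCA2, had the lowest main peak estimate of the repair genes. Its peak, chromosome 16 from 23652531 to 23652887 with 256 bp upstream and 101 bp of exon 1, is shared with DCTN5, a dynactin subunit gene. It had 7.72 and 9.95 normalised CPM with sgFLT3-DE-1, against 15.04 and 14.4 with sgNT, from 25 and 45 counts and 45 and 36 counts. The groups did not overlap and sgFLT3-DE-1 stood at 60.0% of sgNT, with a log2 fold change of -0.72 (SE 0.323, unadjusted p = 0.0334, edgeR adjusted p = 1.0) and a range of -0.94 to -0.57 when 1 library was left out. The main peak estimate of BRCA2, a tumour suppressor that acts in the same repair pathway, lay on the other side of 0. That peak, chromosome 13 from 32889499 to 32889767, is shared with the protein-coding gene ZAR1L. It had 31.5 and 23.2 with sgFLT3-DE-1, against 22.7 and 29.6 with sgNT, overlapping. The log2 fold change was 0.06 (SE 0.27, -0.17 without sgFLT3-DE-1 replicate 1). The other BRCA2 peaks, also shared with ZAR1L, had -0.02 (SE 0.262) and 0.11 (SE 0.324). The BRCA1 peak of highest level, chromosome 17 from 41322953 to 41323468, lay 45572 bp from the canonical BRCA1 start and 691 bp from the nearest annotated one, and is shared with the autophagy receptor gene NBR1. It had 13.3 and 21.9 with sgFLT3-DE-1, against 22.1 and 24.02 with sgNT, just apart, and -0.37 (SE 0.287, and -0.08 without sgFLT3-DE-1 replicate 1). The peak over the canonical BRCA1 start, from 41277320 to 41277637 and named after its values were seen, had 10.2 and 11.3 with sgFLT3-DE-1, against 10.7 and 16.4 with sgNT. There the groups overlapped, and the log2 fold change was -0.32 (SE 0.326).

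The Fanconi anemia gene FANCD2, chromosome 3 from 10067967 to 10068187, had 4.63 and 7.52 normalised CPM with sgFLT3-DE-1, against 6.35 and 8.01 with sgNT, overlapping, and a log2 fold change of -0.20 (SE 0.403). Its second peak had 0.34 (SE 0.597), and FANCA, a core complex subunit gene, had -0.28 (SE 0.273) at its main peak. Over the 5 recombination and crosslink genes 7 of 11 peaks were lower, with a median of -0.20. Among promoter peaks 62.7% were lower. The single strand break genes XRCC1, a scaffold, and PARP1, the break-sensing ADP-ribose polymerase, had 3 of 3 peaks lower (median -0.38). The lowest of these, a small PARP1 intron peak on chromosome 1 from 226558327 to 226558482, had 2.78 and 3.98 with sgFLT3-DE-1, against 5.01 and 6.01 with sgNT, from 9 and 18 counts and 15 and 15 counts. It was apart between groups with a log2 fold change of -0.67 (SE 0.475, edgeR adjusted p = 1.0). The main PARP1 peak had -0.33 (SE 0.259) and XRCC1 -0.38 (SE 0.291). The end joining genes XRCC5 and XRCC6, which encode the Ku subunits, had 3 of 3 estimates below 0, between -0.36 and -0.03, but 1 of 3 without sgNT replicate 1 and 2 of 3 with TMM factors from promoter peaks. MSH6, a mismatch recognition gene, had 4 of 5 lower between -0.23 and 0.14.

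ERCC1, the partner of the excision nuclease XPF, had 7 peaks at or near starts spread along the locus, 2 of which overlapped a start, and the lowest single estimate. That peak, chromosome 19 from 45926762 to 45927100, lay mostly in intron sequence 75 bp from the canonical start. It had 5.25 and 4.64 normalised CPM with sgFLT3-DE-1, against 9.69 and 10.8 with sgNT, from 17 and 21 counts and 29 and 27 counts. Replicates were close and the groups apart, with sgFLT3-DE-1 at 48.3% of sgNT. The log2 fold change was -1.05 (SE 0.381, unadjusted p = 0.00999, edgeR adjusted p = 1.0), and -1.14 to -0.96 when 1 library was left out. The neighbouring peak over the canonical ERCC1 start, from 45927157 to 45927388, had 3.09 and 6.63 with sgFLT3-DE-1, against 3.68 and 7.21 with sgNT, and a log2 fold change of -0.09 (SE 0.474). The difference between these 2 peaks was not tested. The ERCC1 peak of highest level, from 45981711 to 45981965 and 54536 bp from the canonical start, had 4.94 and 9.73 with sgFLT3-DE-1, against 9.36 and 12.4 with sgNT. The groups overlapped, with -0.52 (SE 0.373), and -0.16 without sgFLT3-DE-1 replicate 1. ERCC2, a TFIIH helicase gene, had 0.02 (SE 0.304).

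Promoter peaks are richer in GC than other peaks, and their estimates were lower at higher GC content, so members were set beside promoters of like GC content. The median GC content was 65.3% for p53 target peaks, 61.5% for repair gene peaks and 66.0% for promoter peaks. In quintiles of increasing GC content the median log2 fold change of promoter peaks was 0.01, -0.06, -0.10, -0.13 and -0.16. The members' medians were -0.19, -0.15, -0.25, -0.18 and -0.15 over 16, 18, 15, 13 and 6 peaks. They thus lay below the promoters mainly in the lower 3 quintiles and near them in the quintile of highest GC. Set against the promoter median of its own quintile, 20 of 33 p53 target peaks (median difference -0.05) and 26 of 35 repair gene peaks (-0.14) were lower. With a GC correction in the fit, 19 of 33 and 26 of 35 estimates were below 0 (66.2% of all 68, against 50.4% of promoter peaks), with medians of -0.06 and -0.13. Neither offset was tested, and both rested in part on sgFLT3-DE-1 replicate 1. Without it, 13 of 33 p53 target peaks (median difference 0.04) and 20 of 35 repair gene peaks (-0.06) lay below the promoters of their quintile. Without any other library the median difference was between -0.11 and -0.01 for p53 targets and between -0.36 and -0.13 for repair genes. GADD45B (-0.86), ERCC1 (-0.94), PALB2 (-0.62) and XPC (-0.48) had the same direction after the correction.

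**Figure D4:**
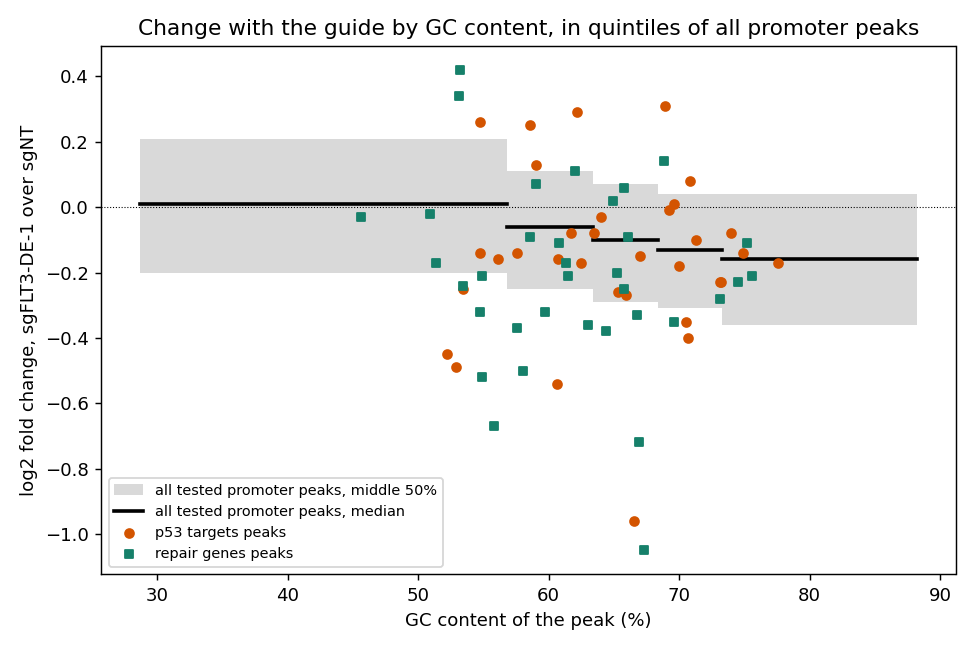
Log2 fold change of sgFLT3-DE-1 over sgNT (vertical axis) against GC content of the peak (horizontal axis) for the 33 p53 target and 35 repair gene peaks, with black lines for the median and grey boxes for the middle 50% of all tested promoter peaks in each quintile of GC content. The promoter median moves between 0.01 in the lowest and -0.16 in the highest quintile, and 46 of 68 member peaks lie below the line of their own quintile.

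Peaks were also described by position. Of the main peaks 17 of 18 at p53 targets and 12 of 16 at repair genes covered the canonical start, the exceptions being TP53I3, CHEK1, XRCC1, BRCA1 and ERCC1. Starts of another protein-coding gene lay within 1 kb of 7 of 33 p53 target and 11 of 35 repair gene tested peaks. This compares with 2720 of the 18160 promoter peaks. Among main peaks alone it was 3 of 18 and 7 of 16. Accessibility of such a peak cannot be assigned to 1 of its genes. With peaks near a start of any other gene left out, 31 of 40 were lower, with medians of -0.14 for p53 targets and -0.17 for repair genes.

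Other genes of both pathways gave values nearer to those of promoters in general. Of 26 other p53 network genes 23 had a tested peak, and 27 of their 42 peaks were lower (median -0.06). Of 42 other repair genes 41 had one, and 44 of 66 peaks were lower (median -0.13). None of these passed FDR 0.05 by edgeR, DESeq2 or limma-voom. At an unadjusted p under 0.05 edgeR gave 0 and 2 peaks, all lower. This compares with 1.07% of all tested peaks and 2.53% of promoter peaks that were lower at that level. Those 2 were low in counts and lay at RAD52, a recombination mediator (-1.06, SE 0.404), and FANCC, a Fanconi anemia core gene (-0.89, SE 0.393). They were named after their values were seen.

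**Figure D5:**
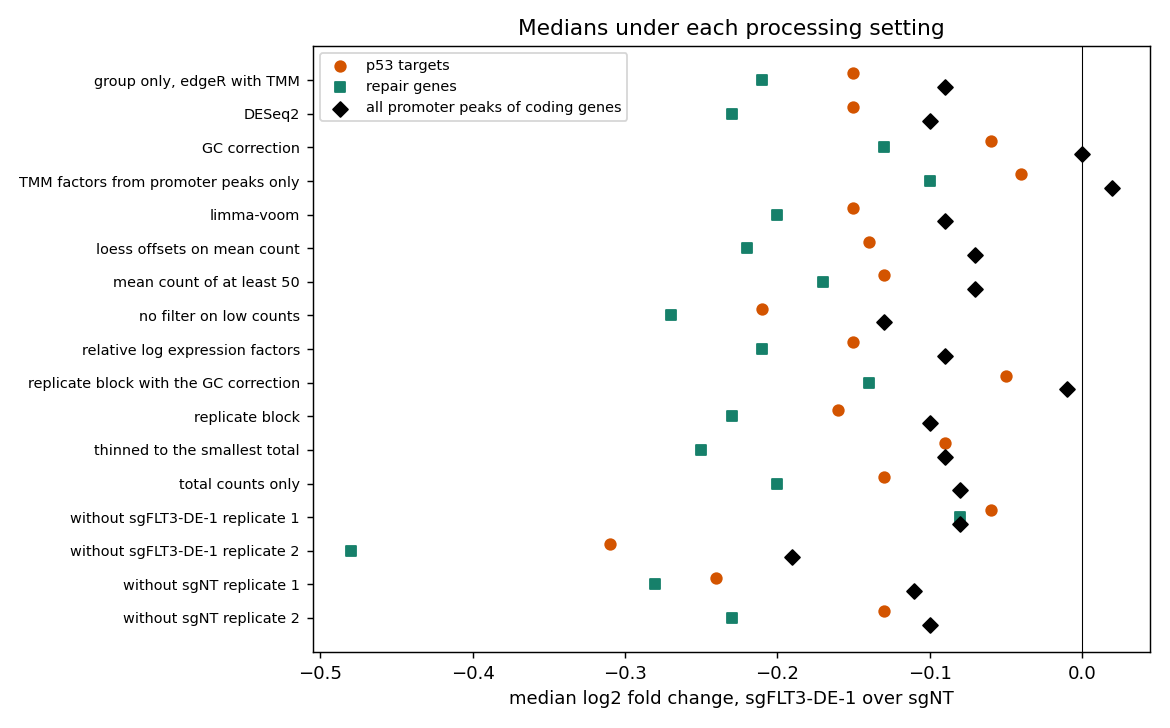
Median log2 fold change of sgFLT3-DE-1 over sgNT (horizontal axis) of p53 target, repair gene and all promoter peaks under each processing setting (vertical axis). The repair gene median runs between -0.48 without sgFLT3-DE-1 replicate 2 and -0.08 without sgFLT3-DE-1 replicate 1, and the p53 target median between -0.31 and -0.04.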

How the data were processed

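Libraries were grouped by the guide in the labels. The authors deposited raw counts per consensus peak, with a list of the same regions, on hg19 (GRCh37). The sources differ on how the counts were made. The extract protocol names cutadapt 1.18 and Bowtie2 2.2.9, and the submitters' processing notes name BWA, Trim Galore 0.4.4, cutadapt, MACS2 2.1.1.20160309, bedtools 2.24.0 and SAMtools 1.2. Which fragments were counted, and whether ends were shifted for the transposase, is not stated there.

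Counts were tested over the whole table with edgeR 4.0.16 (R 4.3.3): filterByExpr (minimum count 10, minimum total 15), TMM factors, the quasi-likelihood test with the guide as the only term, and Benjamini-Hochberg adjustment at FDR 0.05. The SE was taken as the size of the log2 fold change divided by the root of F. The procedure was tested on simulated counts, with increases set in peaks above the median level. At FDR 0.05 it recovered 0% of 1.5-fold, 17.9% of 2-fold and 98.5% of 4-fold increases. With 2 libraries per guide an exact permutation test cannot give a two-sided p below 0.33. Replicates differed by more than counting error (chi-square per degree of freedom 2.19 with sgFLT3-DE-1, against 1.4 with sgNT).

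Starts, exons and canonical transcripts came from GENCODE 44 lifted to GRCh37, and sequences from the GRCh37 reference. Full values are given for the main peaks of CDKN1A, MDM2, TP53I3, FAS, ATM, ATR, BRCA1, BRCA2 and CHEK1, the 5 peaks of smallest p per class, and the most and least open main peak per class. Members and lists were chosen with earlier results of these data known, so lists are described and not tested. GC correction fitted each library by loess to the GC content of the peaks (span 0.3). The alternatives were other normalizations and filters, DESeq2 1.42.0, limma-voom (limma 3.58.1), thinning, the replicate number as a block, each library left out, and other definitions of a promoter peak. TMM factors from promoter peaks only, the main peaks of all protein-coding genes as a background for levels, and the GC-matched differences without each library were added after seeing the data.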

Additional observations from a re-analysis of the deposited data

How the results depend on the processing

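No p53 target or repair gene peak passed FDR 0.05 under any of the 21 alternatives, and both class medians stayed below 0 in all of them. The p53 target median ranged from -0.31 to -0.04 and the repair gene median from -0.48 to -0.08, with -0.31 to -0.06 and -0.48 to -0.08 when 1 library was left out. The number of lower estimates ranged from 44 to 57 of 68 when 1 library was left out. It was 25 of 32 with a mean count of at least 50, 30 of 34 with 1 peak per gene and 31 of 40 without peaks shared with another gene.

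Over all tested peaks the count past FDR 0.05 was 2. It was 1 with DESeq2, with the GC correction, with thinning to the smallest total and with total counts only, 5 with no filter, 0 with a mean count of at least 50, 6 with loess offsets, and 0 to 9 when 1 library was left out. The labels do not say that the replicate number marks a batch. Over all tested peaks the differences between replicates correlated at 0.397 across guides, from only 2 pairs of libraries. Libraries with the same number correlated at 0.915 and 0.922, against 0.875 and 0.887 for libraries with the same guide. With the number as a block, 74 peaks passed (20 with the GC correction added), and no member did. The smallest adjusted p of a member under the block was 0.101 by edgeR, at GADD45B.

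Of 357 values of 23 named peaks under alternatives, 328 had the same direction and 29 another, over 8 peaks. With the GC correction CDKN1A was 0.07, FAS 0.04, TP53I3 0.02 and 0.12, and ATR 0.03. With the block and GC correction CDKN1A was 0.03, FAS 0.06, TP53I3 0.03 and 0.14, and ATR 0.02, and with the block alone the second TP53I3 peak was 0.00. With TMM factors from promoter peaks CDKN1A was 0.02, FAS 0.07, the second TP53I3 peak 0.10 and ATR 0.02. With thinning CDKN1A was 0.03, FAS 0.20 and the second TP53I3 peak 0.12, and with no filter BRCA2 was 0.00 (just below 0). Leaving out 1 library changed the direction of CDKN1A (-0.50 to 0.20), the main GADD45A peak (-0.13 to 0.26), FAS (-0.31 to 0.20), the second TP53I3 peak (-0.40 to 0.32), BRCA2 (-0.17 to 0.27) and FANCD2 (-0.63 to 0.07). The cause was not tested. Counts per library and peak ran from 4 to 599. Low counts and the spread between replicates both limit the precision of a single peak.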
